A study of Homo sapiens with 36 samples.

Results

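The genes described here are 40 genes of glucose use: the glucose transporters SLC2A1 and SLC2A3, the glycolytic enzymes from hexokinase to lactate dehydrogenase, the lactate transporters SLC16A1 and SLC16A3, and enzymes of the pentose phosphate pathway, of glycerol phosphate and of glycogen. They were chosen as a list of symbols by pathway, and the rule uses no measured value, although earlier results of these data were known when the list was written. All 40 were found among the 57820 gene identifiers of the count table. Glycolysis splits glucose into pyruvate and reduces NAD+ to NADH on the way, and lactate dehydrogenase turns pyruvate into lactate and NADH back into NAD+. Its lower part passes through phosphoglycerate, from which cells also make serine. The pentose phosphate pathway branches off at glucose phosphate and supplies NADPH and ribose phosphate. In the glycerol phosphate shuttle, the cytosolic enzymes GPD1 and GPD1L use NADH to make glycerol phosphate, and the mitochondrial enzyme GPD2 oxidizes it again and hands the electrons to the respiratory chain.

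RNA was sequenced from A2780 cells, an established human ovarian cancer cell line, in 36 libraries of 12 conditions with 3 libraries each. The parental platinum-sensitive cells (wt) and the resistant cells derived from them by long exposure to cisplatin (cis) came from a cell bank. The third kind of cell (cis SSP) is a derivative of cis that grew out during culture without serine and glycine and is labelled as having regained serine synthesis. Each kind was cultured with serine and glycine (complete medium) or lacking them (-SG), and with or without carboplatin (carbo). The labels print the carboplatin dose as 6 M, read here as 6 µM, the dose named in the methods for other assays of these cells. Day 5 is the usual day of the experiments, and no day is named for the sequencing in particular. Each of the 3 kinds is 1 cell line, and the libraries of a condition are called technical replicates in the legends, so the p-values measure the spread between libraries and not between independent cultures.

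The libraries held between 13074937 and 20441582 counts on genes. Expression is given as CPM, a read count set relative to its library's TMM-scaled total, with the SD of 3 libraries. A gene is called higher or lower, or said to rise or fall, when its Benjamini-Hochberg adjusted p-value over all genes tested in that comparison was under 0.05 in the quasi-likelihood test of edgeR. Fold changes are on the log2 scale with their standard error (SE). The first library of cis SSP (library 25) and the second of cis SSP -SG (library 32) stood apart from the libraries of their own conditions, with log2 deviations of -0.397 and -0.409 per doubling of transcript length. The counts of called genes and most fold changes on these conditions are therefore given with and without them, while levels and shares are given over all 3 libraries. Some counts from other fits stand without the share of all genes called, which was not tabulated for them. Such counts do not set these genes apart from all genes. Markers of ovarian and epithelial carcinoma were mostly low: the medians over the libraries of PAX8, WT1, MUC16, EPCAM, KRT7, KRT8 and CDH1 were at most 1.02 CPM, while KRT18 had a median of 14.3 CPM. Of the fibroblast markers, PDGFRA had a median of 204 CPM, and the medians of DCN, LUM and FAP were at most 0.702 CPM. These levels varied widely between libraries. KRT18 ran from 0.345 to 42.2 CPM and PDGFRA from 5.13 to 379 CPM, while DCN reached 27.7 CPM and LUM 5.96 CPM in the highest library. None of the leukocyte and endothelial markers measured exceeded 0.366 CPM in any library. The endothelial marker PECAM1 was not matched to a gene identifier and has no value.

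Per kb of exon, the mean level over the 36 libraries was highest for GAPDH (766 CPM per kb), the NAD+-dependent dehydrogenase of the middle of glycolysis, followed by LDHB (371 CPM per kb), the enolase ENO1 (343 CPM per kb), the aldolase ALDOA (219 CPM per kb), the pyruvate kinase PKM (187 CPM per kb) and LDHA (179 CPM per kb). Per kb, GAPDH was first in each of the 12 conditions, and the order of the others differed between conditions: ALDOA had 412 CPM per kb in wt carbo, above ENO1 (319) and LDHB (265), and 159 CPM per kb in cis, below LDHA (228). The length joined all annotated exons of a gene, and the order depended on it. Undivided, the means over the 36 libraries were 1836 CPM for GAPDH, 1791 for ENO1, 1603 for PKM, 1107 for LDHB, 1079.8 for LDHA and 840.1 for ALDOA. At the other end, FBP1, which encodes the gluconeogenic fructose bisphosphatase, had at most 6 counts in a library and was tested in no comparison. The neuronal enolase ENO2 (0.157 CPM per kb) and GPD1 (0.167 CPM per kb) were the next lowest, and ENO2, GPD1, PYGM and SLC16A3 were tested in only some of the 14 comparisons. The 40 genes together held 1.32% ± 0.016 of the counts on genes in wt, 1.28% ± 0.0211 in cis and 1.25% ± 0.0721 in cis SSP cells (SD, n = 3 libraries). Without serine and glycine the share was 1.05% ± 0.00836 in wt and 0.958% ± 0.0106 in cis cells, lower than in each library of the same line in complete medium. In cis SSP cells it was 1.26% ± 0.0777 without serine and glycine, which overlapped with complete medium.

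**Figure D1:**
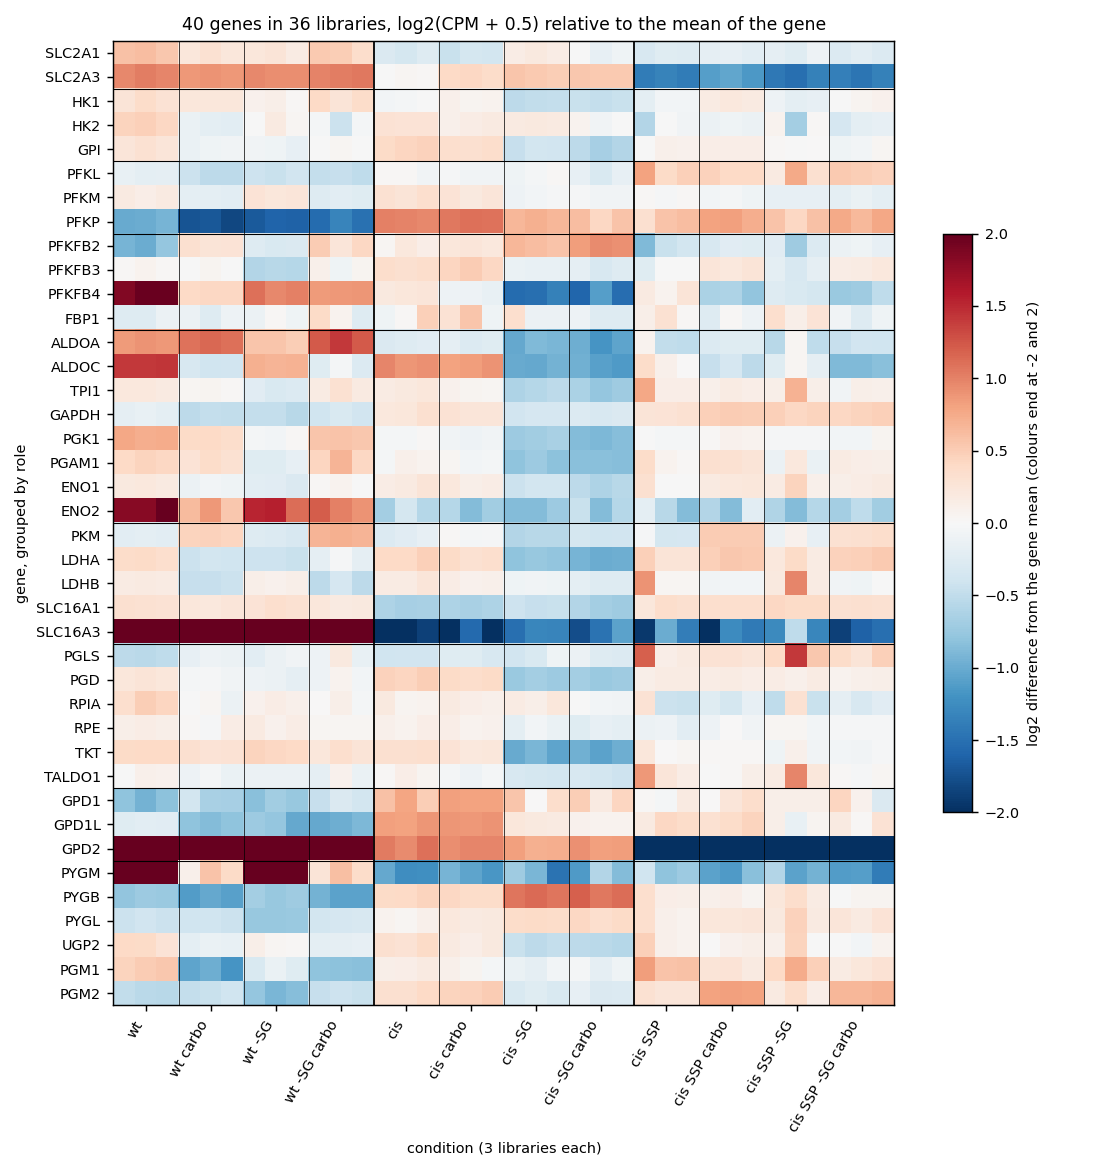
Expression of the 40 genes (rows, grouped by role) in the 36 libraries (columns, 3 for each condition), as log2(CPM + 0.5) minus the mean of that gene over all libraries; red is above and blue below the mean, and colours end at -2 and 2. In the rows of GPD2, SLC16A3 and PYGM every wt library is above every library of the other lines, and ALDOA, ALDOC, TPI1, GAPDH, PGK1, PGAM1 and ENO1 are lower in the 6 cis libraries without serine and glycine than in the 6 with them.

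GPD2, the mitochondrial glycerol phosphate dehydrogenase (ENSG00000115159, chromosome 2 from 157291802 to 157470247 in GRCh37), had the widest range of the 40 genes among those with a ratio, 253 between its highest and lowest condition mean. In complete medium its CPM was 129, 129 and 129.7 in the wt libraries, 29, 27.3 and 30.5 in the cis libraries and 0.807, 1.27 and 1.31 in the cis SSP libraries. The lines did not overlap, and the order from wt over cis to cis SSP was the same in all 4 combinations of medium and drug. Its means in wt cells were 73.1 ± 0.354 CPM with carboplatin, 91.3 ± 3.53 CPM without serine and glycine and 71.5 ± 4.55 CPM with both. In cis cells the 4 means lay between 23.8 ± 1.04 CPM (cis -SG) and 28.9 ± 1.64 CPM (cis), and in cis SSP cells between 0.511 ± 0.272 CPM (cis SSP -SG) and 1.13 ± 0.279 CPM (cis SSP). By edgeR, GPD2 was lower in cis than in wt cells, with a log2 fold change of -2.18 (SE 0.0415, edgeR adjusted p = 5.39e-39). Between cis SSP and cis it was -4.66 (SE 0.191, edgeR adjusted p = 4.53e-05), and -4.47 without library 25. From the summed counts, 1504 in cis and 56 in cis SSP cells, the cis level was 25 times that of cis SSP, with an exact 95% interval of 19.2 to 33.3 that covers counting error only. In bulk libraries, fewer expressing cells and less RNA in each cell cannot be told apart.

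GPD1L, a cytosolic enzyme that makes glycerol phosphate (ENSG00000152642, chromosome 3 from 32147181 to 32210201), was ordered otherwise. Its CPM was 32.3, 32.8 and 32.4 in wt, 67.6, 67 and 70.7 in cis and 43.2, 50.9 and 49.1 in cis SSP cells, with no overlap between the lines. By edgeR, the log2 fold change was 1.06 (SE 0.0449, edgeR adjusted p = 3.61e-25) for cis against wt and -0.54 (SE 0.113, edgeR adjusted p = 0.0148) for cis SSP against cis, the latter -0.44 without library 25. GPD1, the other cytosolic enzyme (ENSG00000167588, chromosome 12 from 50497765 to 50505096), was barely expressed, at 1 to 2 counts in each wt library. Its counts summed to 5 in wt and 60 in cis cells, a ratio of 12.8 with an exact 95% interval of 5.17 to 40.7 for counting error. Per kb, GPD1L made up 99.7% ± 0.117 of the cytosolic pair in wt and 98% ± 0.344 in cis cells. GPD2 was thus highest in wt cells, and both cytosolic genes were higher in cis than in wt.

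**Figure D2:**
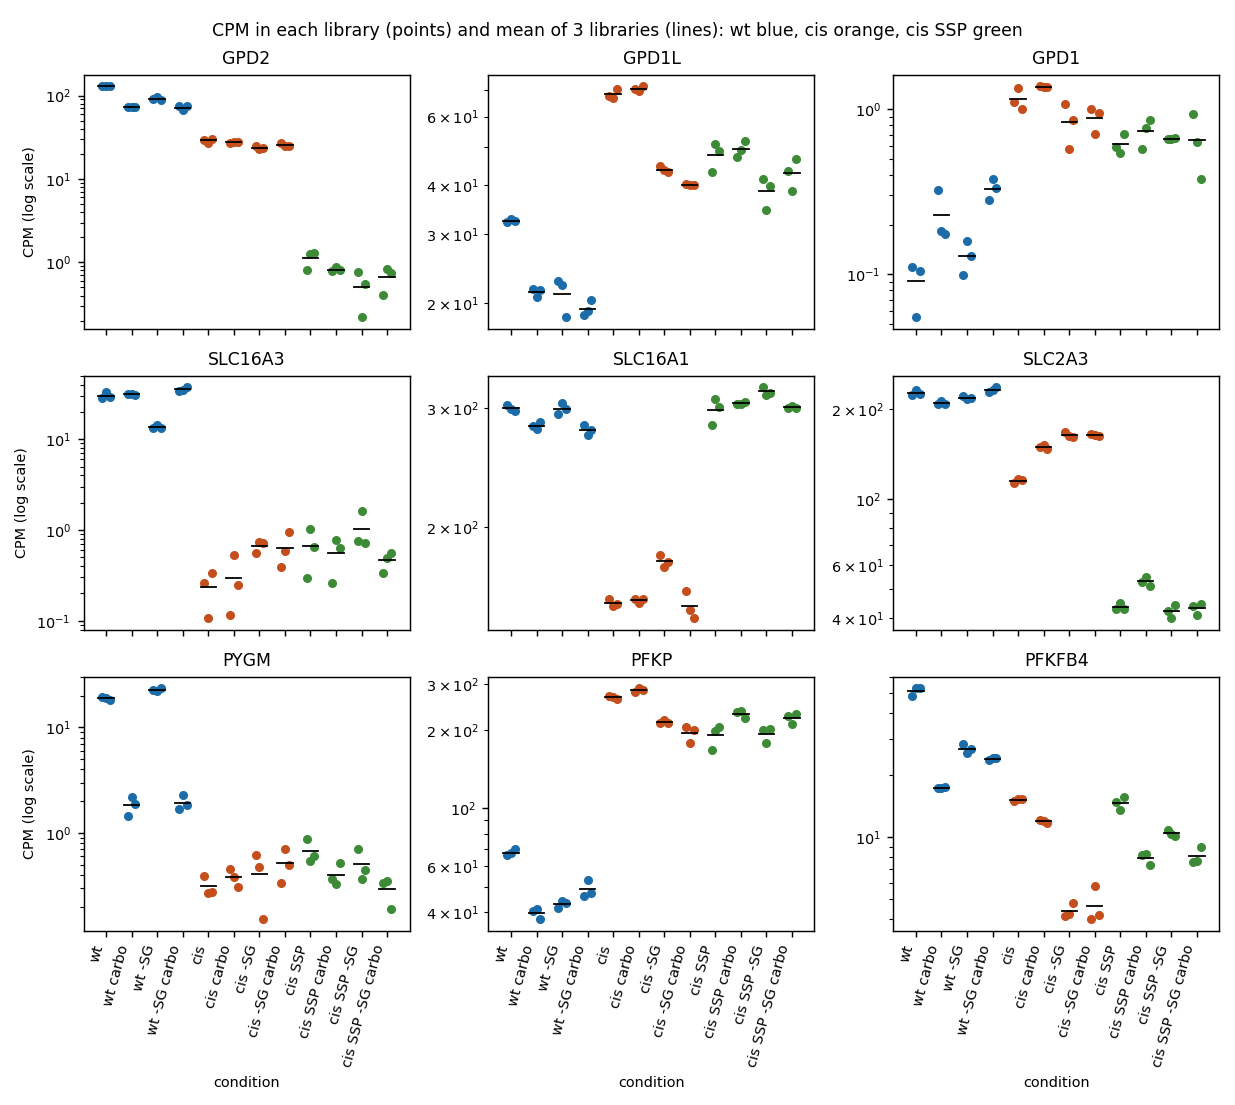
CPM on a log scale of 9 of the genes in each library (points: wt blue, cis orange, cis SSP green) and the mean of 3 libraries (black lines) in the 12 conditions. GPD2 goes from 129 CPM in wt over 28.9 CPM in cis to 1.13 CPM in cis SSP, SLC16A3 is at 0.234 CPM and PYGM at 0.312 CPM in cis, and SLC2A3 is lowest in the cis SSP conditions.

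Between cis and wt cells in complete medium, 14 of 39 tested genes were higher and 17 lower in cis, beside 39.4% higher and 39.1% lower of all 14431 genes tested. The shares of the list, 35.9% and 43.6%, were near those of all genes, and its median log2 fold change was -0.03. Both glucose transporters were lower in cis, and all 3 phosphofructokinases were higher. PFKP, the platelet-type phosphofructokinase (ENSG00000067057, chromosome 10 from 3108525 to 3179910), had 66.1, 67.2 and 69.9 CPM in wt libraries and 269.9, 267 and 263 CPM in those of cis. The log2 fold change of this gene was 1.96 (SE 0.0306, edgeR adjusted p = 1.79e-42). PYGB, the brain-type glycogen phosphorylase that releases glucose phosphate from glycogen, rose by 1.15 (SE 0.0383, edgeR adjusted p = 2.57e-29), from 48 ± 1.3 to 108 ± 2.34 CPM. PFKFB2, an isozyme that sets the level of a fructose bisphosphate that activates phosphofructokinase, rose by 1.01 (SE 0.0524, edgeR adjusted p = 1.61e-14), from 41.2 ± 3.44 to 84.1 ± 4.92 CPM. Its relative PFKFB4 (ENSG00000114268, chromosome 3 from 48555117 to 48599448) went the other way, from 48.4, 52.7 and 52.8 CPM to 14.9, 15.3 and 15.4 CPM, with a log2 fold change of -1.77 (SE 0.0585, edgeR adjusted p = 1.85e-29). The lines did not overlap for these 4 genes.

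The deepest falls from wt to cis were in genes that cis cells barely expressed. SLC16A3 encodes MCT4, a lactate exporter (ENSG00000141526, chromosome 17 from 80175810 to 80219005), and was at 28.3, 32.8 and 29.2 CPM in wt libraries and 0.261, 0.107 and 0.334 CPM in those of cis, which is 2 to 6 counts in a library. The log2 fold change was -7.00 (SE 0.167, edgeR adjusted p = 5.65e-35), and the wt level from summed counts was 131 times that of cis, with an exact 95% interval of 74.5 to 253. PYGM, the muscle-type glycogen phosphorylase (ENSG00000068976, chromosome 11 from 64513861 to 64527446), had 19.5, 18.9 and 18.2 CPM in wt libraries and 0.391, 0.267 and 0.278 CPM in those of cis (5 to 6 counts in a library). Its log2 fold change was -5.93 (SE 0.17, edgeR adjusted p = 7.67e-32), with a ratio of 61.4 (exact 95% interval 37.6 to 108). ENO2 had 172 counts in wt and 7 in cis cells, a ratio of 23.1 (exact 95% interval 11 to 58.3). The lactate transporter MCT1, encoded by SLC16A1, was at 303, 299 and 297 CPM in wt libraries and 157, 153 and 154 CPM in those of cis. The log2 fold change of this gene was -0.97 (SE 0.0262, edgeR adjusted p = 5.62e-33).

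The lactate dehydrogenases were not called between wt and cis. LDHA (ENSG00000134333, chromosome 11 from 18416107 to 18429972) had 1310.0 ± 21.6 CPM in wt libraries and 1373 ± 35.5 CPM in those of cis, with a log2 fold change of 0.05 (adjusted p = 0.0563 by edgeR), and LDHB was at 1215 ± 11 and 1231 ± 38.8 CPM, at -0.00 (adjusted p = 0.99 by edgeR). Of the 8 genes from aldolase to enolase, 5 were lower in cis and 1 was higher. ALDOA was among the lower ones, at 609.5 ± 12.6 against 1339 ± 19.9 CPM (-1.15 on the log2 scale), as was PGK1, the first ATP-forming kinase of glycolysis, at 138 ± 3.79 against 237 ± 4 CPM (-0.79). The 1 higher was GAPDH. Of the 6 pentose phosphate genes, 2 were higher, 2 lower and 2 not called.

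The glucose transporters separated the lines in different ways. SLC2A1, or GLUT1 (ENSG00000117394, chromosome 1 from 43391024 to 43424564), had 100.3, 102 and 96.7 CPM in wt, 54.5, 51.9 and 55.8 CPM in cis and 53.3, 56.4 and 55.4 CPM in cis SSP cells. SLC2A3, or GLUT3 (ENSG00000059804, chromosome 12 from 8071826 to 8171603), had 223, 232 and 224 CPM in wt, 113, 117 and 116 CPM in cis and 42.7, 44.9 and 42.7 CPM in cis SSP cells. SLC2A1 overlapped between cis and cis SSP, and SLC2A3 separated all 3 lines. By edgeR, the log2 fold changes for cis against wt were -0.90 (SE 0.0388, edgeR adjusted p = 5.43e-25) for SLC2A1 and -0.99 (SE 0.0286, edgeR adjusted p = 1.08e-31) for SLC2A3. For cis SSP against cis they were 0.01 (adjusted p = 0.952; 0.06 without library 25) for SLC2A1 and -1.43 (SE 0.0935, edgeR adjusted p = 0.00019) for SLC2A3, the latter -1.39 without library 25. Per kb, SLC2A1 held 32.6% ± 0.443 of the pair in wt, 33.9% ± 1.05 in cis and 58.1% ± 0.52 in cis SSP cells.

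Most of the 40 genes were lower with carboplatin in wt cells in complete medium. Of 38 tested, 30 were lower and 5 higher, beside 39% lower and 38.9% higher of all 14639 genes. The median log2 fold change was -0.31, against -0.00 over all genes tested. Of the 8 genes from aldolase to enolase 7 fell, as did both glucose transporters, all 3 genes of the hexokinase and isomerase steps, all 3 phosphofructokinases and 5 of 6 pentose phosphate genes. PYGM went from 19.5, 18.9 and 18.2 CPM to 1.46, 2.19 and 1.87 CPM with carboplatin, a log2 fold change of -3.36 (SE 0.119, edgeR adjusted p = 3.4e-121). ALDOC, the brain-type aldolase, went from 71.2, 70.7 and 72 CPM to 20.9, 19.9 and 20.1 CPM, a log2 fold change of -1.81 (SE 0.0488, edgeR adjusted p = 7.07e-175). The treated and untreated libraries did not overlap for these genes, nor for the 2 that follow. PGM1, a phosphoglucomutase between glycogen and glycolysis, went from 70.7, 74 and 75.7 CPM to 24.7, 26.2 and 22.8 CPM, at -1.58 (SE 0.0465, edgeR adjusted p = 4.3e-156). PFKFB4 fell from 51.3 ± 2.54 to 17.4 ± 0.113 CPM, at -1.55 (SE 0.0547, edgeR adjusted p = 1.36e-122).

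The lactate and glycerol phosphate genes of wt cells changed with carboplatin as well. LDHA fell from 1310.0 ± 21.6 to 771 ± 16.4 CPM and LDHB from 1215 ± 11 to 792 ± 10.8 CPM, with log2 fold changes of -0.76 and -0.61. GPD2 was at -0.82 and GPD1L at -0.60, both lower. SLC2A1 was lower by 0.32, SLC2A3 by 0.10 and SLC16A1 by 0.08 on the log2 scale, while SLC16A3 was not called (0.06, adjusted p = 0.311 by edgeR).

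The 5 genes that rose with carboplatin in wt cells were PFKFB2, PKM, PGLS, ALDOA and PGM2. PFKFB2 went from 40.2, 38.4 and 45 CPM to 96.7, 92.4 and 93.2 CPM, a log2 fold change of 1.20 (SE 0.039, edgeR adjusted p = 1.45e-122). PKM, the last enzyme before lactate dehydrogenase, went from 1333, 1353 and 1328 CPM to 2105, 2135 and 2089 CPM, at 0.66 (SE 0.0173, edgeR adjusted p = 1.08e-182). PGLS, the lactonase of the pentose phosphate pathway, rose by 0.40 and ALDOA by 0.24 on the log2 scale. The groups did not overlap for these 4 genes. In a single fit over all 36 libraries, PGLS and ALDOA were not called (at 0.40 and 0.24), nor was PGM2, so that 2 higher genes remained, PFKFB2 and PKM.

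In cis cells the changes with carboplatin were smaller. Of 36 tested genes, 8 were higher and 7 lower, beside 9.27% higher and 10.8% lower of all 13458 genes, and the called log2 fold changes ran from -0.34 to 0.38. With total counts in place of TMM scaling the split was 7 higher and 10 lower. With the Wald test of DESeq2 7 genes were called, and in a single fit over the 36 libraries 2 were. SLC2A3 rose from 116 ± 1.99 to 149.6 ± 2.13 CPM, at 0.38 (SE 0.032, edgeR adjusted p = 4.11e-10), and PKM from 1325 ± 47.5 to 1533 ± 29.2 CPM, at 0.22 (adjusted p = 3.61e-07 by edgeR). PGM2, a phosphoglucomutase, and the liver-type phosphorylase PYGL were higher by 0.14 and 0.13. PFKFB4 fell from 15.2 ± 0.286 to 11.9 ± 0.232 CPM, at -0.34 (SE 0.0797, edgeR adjusted p = 0.00267). UGP2, which makes the sugar nucleotide for glycogen, the hexokinase HK2 and the triose phosphate isomerase TPI1 were lower, at -0.15, -0.13 and -0.13. The call was lost for HK2 without the first cis carbo library (-0.11) and for PGM2 without the third (0.12). LDHA (-0.07), LDHB (-0.07), SLC16A1 (0.03), SLC2A1 (-0.08), GPD1 (0.26), GPD1L (0.06) and GPD2 (-0.07) were not called.

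**Figure D3:**
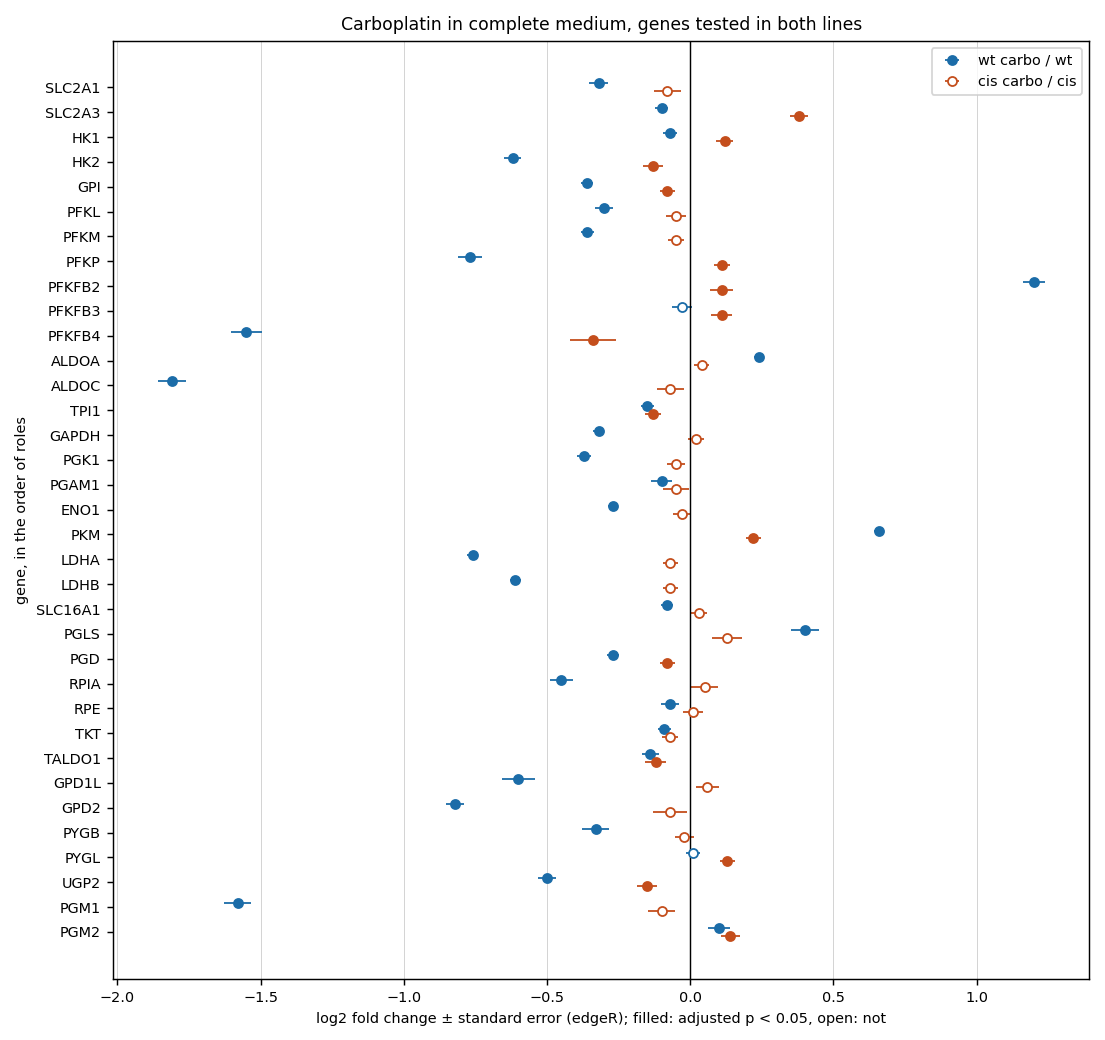
Log2 fold change with carboplatin in complete medium for the 35 genes tested in both lines, wt in blue and cis in orange; bars are the standard error of edgeR, filled points have an adjusted p-value under 0.05 and open points do not. The wt points reach from -1.81 (ALDOC) to 1.20 (PFKFB2), and the filled cis points lie between -0.34 and 0.38.

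The response to carboplatin was compared between the lines by the interaction of line and drug. Of 39 tested genes 30 differed: 26 had a higher log2 fold change in cis than in wt cells and 4 a lower one, beside 30.3% and 27.2% of all 15300 genes. The median difference was 0.26, against 0.02 over all genes. The largest was that of PYGM, at 3.69 (SE 0.54, edgeR adjusted p = 2.98e-08), of which the cis libraries held few counts with or without the drug. ALDOC followed at 1.74 (SE 0.0669), PGM1 at 1.48 (SE 0.0671) and PFKFB4 at 1.22 (SE 0.0993). The 4 with a lower value in cis cells were PFKFB2, at -1.08 (SE 0.0618), PKM, at -0.44 (SE 0.0311), PGLS, at -0.27, and ALDOA, at -0.19. All 4 were higher with carboplatin in wt cells, and the interaction calls of PGLS and ALDOA were lost in a single fit over the 36 libraries. LDHA differed by 0.69 and LDHB by 0.55, GPD2 by 0.76, GPD1L by 0.66, SLC2A1 by 0.24, SLC2A3 by 0.49 and SLC16A1 by 0.11, each called. SLC16A3 (0.22, adjusted p = 0.78) and GPD1 (-1.03, adjusted p = 0.23) were not called by edgeR.

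Without serine and glycine, the genes of lower glycolysis were lower in wt cells. In all, 29 of 38 tested genes were lower and 4 higher, beside 25.1% lower and 24.1% higher of all 14284 genes. The median log2 fold change was -0.34 in the list and 0.01 over all genes. All 8 genes from aldolase to enolase fell, and 4 of 5 genes of pyruvate and lactate. SLC16A3 went from 28.3, 32.8 and 29.2 CPM to 13.3, 14.3 and 13.3 CPM, a log2 fold change of -1.14 (SE 0.0706, edgeR adjusted p = 4.74e-11). PFKFB4 fell from 51.3 ± 2.54 to 26.9 ± 1.29 CPM, at -0.93 (SE 0.0535, edgeR adjusted p = 1.78e-11). The media did not overlap for these genes, nor for LDHA and PGK1. LDHA went from 1319, 1326 and 1285 CPM to 767, 764 and 748 CPM, at -0.78 (SE 0.0201, edgeR adjusted p = 6.76e-17), and PGK1 from 241, 233 and 236 CPM to 137, 135 and 142 CPM, at -0.78 (SE 0.03, edgeR adjusted p = 3.7e-14). The 4 genes that rose were PFKFB2 (0.62), PGLS (0.39), PYGM (0.26) and the muscle-type phosphofructokinase PFKM (0.09), of which PFKM was not called without the second wt library, at 0.07, nor with DESeq2, at 0.08. In a single fit over the 36 libraries only PFKFB2 of these 4 was called higher, with PGLS at 0.39, PYGM at 0.26 and PFKM at 0.08. LDHB fell by 0.07, SLC2A1 by 0.36, GPD2 by 0.50 and GPD1L by 0.61 on the log2 scale. SLC2A3 (-0.05) and SLC16A1 (0.00) were not called.

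In cis cells 25 of 37 tested genes were lower and 9 higher without serine and glycine, beside 37.4% lower and 37.6% higher of all 14122 genes. The median log2 fold change was -0.36 in the list and 0.01 over all genes. All 7 tested genes from aldolase to enolase fell, by 0.52 to 1.90 on the log2 scale. ALDOC (ENSG00000109107, chromosome 17 from 26900133 to 26903966) went from 52.5, 49.1 and 50.2 CPM to 12.9, 12.7 and 13.4 CPM, a log2 fold change of -1.90 (SE 0.0603, edgeR adjusted p = 2.5e-30). PFKFB4 went from 14.9, 15.3 and 15.4 CPM to 4.13, 4.23 and 4.77 CPM, at -1.73 (SE 0.1, edgeR adjusted p = 2.29e-20). The media did not overlap for these genes, nor for the 3 that follow. LDHA went from 1352, 1353 and 1414 CPM to 582, 604 and 594 CPM, at -1.15 (SE 0.0279, edgeR adjusted p = 5.08e-35). TKT, the transketolase that links ribose phosphate to glycolysis (ENSG00000163931, chromosome 3 from 53258728 to 53290068), went from 219, 218 and 220.2 CPM to 87.3, 92.8 and 84.3 CPM, at -1.25 (SE 0.0339, edgeR adjusted p = 3.94e-33). PGD, the phosphogluconate dehydrogenase of the oxidative pentose phosphate branch, fell from 355 ± 6.92 to 157 ± 4.31 CPM, at -1.12 (SE 0.03).

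Both glucose transporters and the phosphorylases PYGB and PYGL were higher in cis cells without serine and glycine. PYGB rose from 108 ± 2.34 to 173 ± 3.81 CPM, at 0.74 (SE 0.0329, edgeR adjusted p = 1.2e-24), and PYGL from 302 ± 6.02 to 372 ± 3.22 CPM, at 0.36. SLC2A3 rose from 116 ± 1.99 to 164 ± 3.75 CPM, at 0.56 (SE 0.0325, edgeR adjusted p = 2.08e-20), and SLC2A1 from 54 ± 1.98 to 74.6 ± 1.75 CPM, at 0.53 (SE 0.0426, edgeR adjusted p = 3.14e-15). PFKFB2 rose from 84.1 ± 4.92 to 119 ± 3.7 CPM, at 0.56 (SE 0.038). SLC16A1 was higher by 0.27, while LDHB fell by 0.21, GPD2 by 0.22 and GPD1L by 0.58 on the log2 scale. GPD1 was not called (-0.40, adjusted p = 0.206 by edgeR). SLC16A3 was called higher, at 1.57 (SE 0.438, edgeR adjusted p = 0.00139), with 0.561, 0.731 and 0.711 CPM against 0.261, 0.107 and 0.334 CPM.

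**Figure D4:**
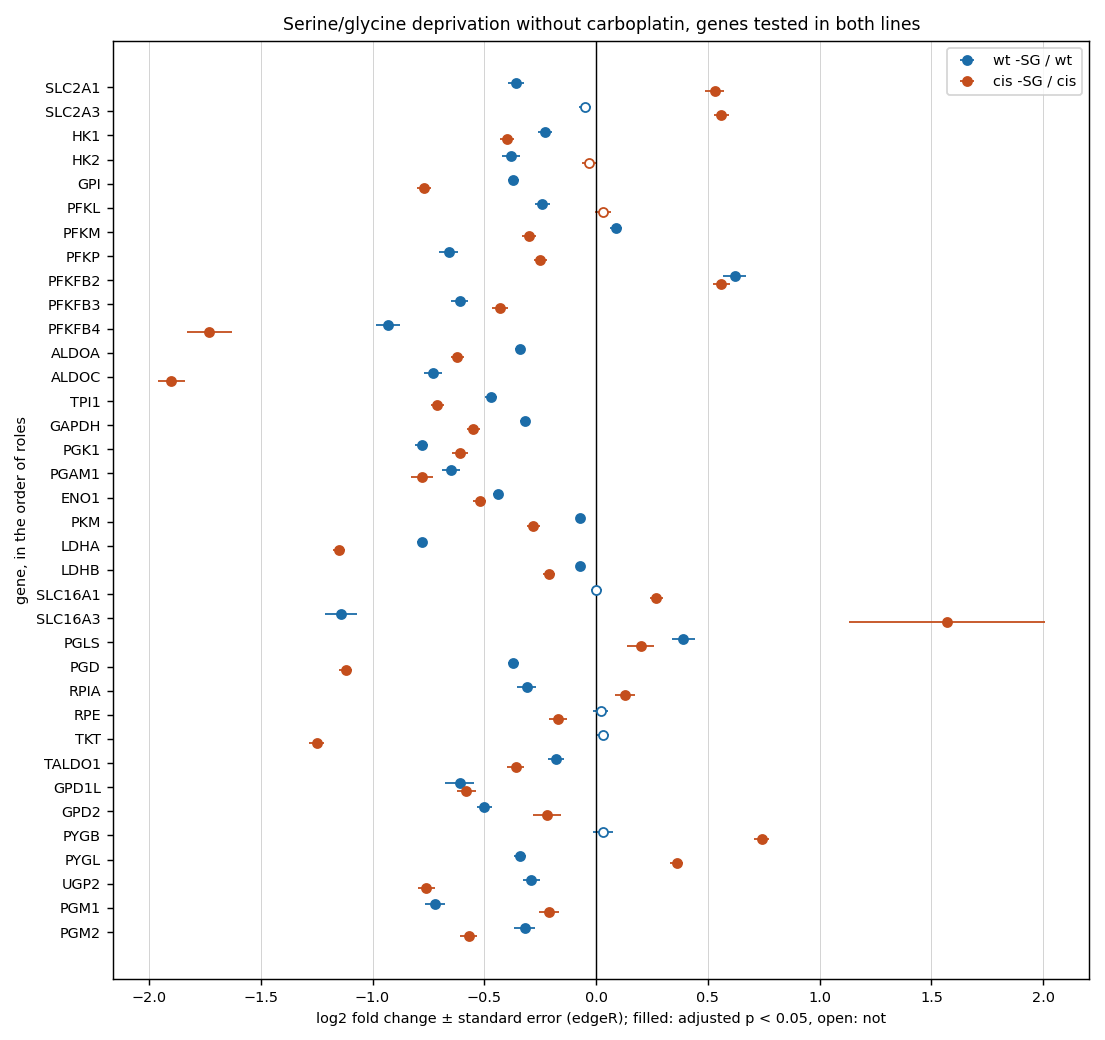
Log2 fold change without serine and glycine, with no carboplatin, for the 36 genes tested in both lines, wt in blue and cis in orange; bars are the standard error of edgeR, filled points have an adjusted p-value under 0.05 and open points do not. The genes from aldolase to enolase lie left of 0 in both lines, TKT is at 0.03 in wt and -1.25 in cis, and SLC2A1 is at -0.36 in wt and 0.53 in cis.

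The interaction of line and medium called 31 of 39 tested genes, 14 with a higher log2 fold change in cis than in wt cells and 17 with a lower one, beside 27.1% and 26.9% of all 15418 genes. TKT was at 229.6, 231 and 230.4 CPM in wt and at 238, 233 and 232 CPM in wt -SG cells, where its change of 0.03 was not called. Between the lines TKT differed by -1.26 (SE 0.0426, edgeR adjusted p = 2.36e-24). ALDOC differed by -1.15 (SE 0.0702), PFKFB4 by -0.79 (SE 0.112) and PGD by -0.74 (SE 0.0391), all with the deeper fall in cis cells. The genes with a higher value in cis cells were led by SLC16A3, at 2.73 (SE 0.418), which was under 1 CPM in the cis libraries of either medium. SLC2A1, which fell in wt and rose in cis cells, followed at 0.90 (SE 0.0542), then PYGB at 0.72 and PYGL at 0.71. SLC2A3 differed by 0.63, SLC16A1 by 0.28, GPD2 by 0.30, LDHA by -0.35 and LDHB by -0.13, all called. GPD1L, at 0.04 (adjusted p = 0.658), and GPD1, at -0.85 (adjusted p = 0.411), were not called by edgeR.

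The promoters of 3 genes that fell without serine and glycine in both lines are shown, since they hold several copies of ACGTG, core letters of the hypoxia response element, which also lie within the E-box CACGTG. Promoter windows of 300 bases around the start site came from RefSeq (GRCh38.p14, not the build of the counts) and were matched for 35 of the 40 genes. The motif was searched on both strands, and overlapping matches were counted as 1 stretch. In the sequences, read 5′ to 3′, capitals mark ACGTG and its reverse complement CACGT.
LDHA: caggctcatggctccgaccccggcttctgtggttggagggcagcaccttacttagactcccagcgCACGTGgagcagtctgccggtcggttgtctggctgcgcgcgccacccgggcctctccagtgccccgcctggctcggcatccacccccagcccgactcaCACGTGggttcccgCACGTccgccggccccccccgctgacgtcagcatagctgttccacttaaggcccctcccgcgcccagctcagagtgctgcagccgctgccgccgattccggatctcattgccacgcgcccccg
PGK1: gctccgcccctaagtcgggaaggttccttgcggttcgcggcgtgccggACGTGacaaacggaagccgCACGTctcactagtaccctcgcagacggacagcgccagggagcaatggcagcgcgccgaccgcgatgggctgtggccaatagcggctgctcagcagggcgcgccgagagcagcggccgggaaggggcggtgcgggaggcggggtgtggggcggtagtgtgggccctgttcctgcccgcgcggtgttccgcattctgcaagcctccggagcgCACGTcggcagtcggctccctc
ALDOC: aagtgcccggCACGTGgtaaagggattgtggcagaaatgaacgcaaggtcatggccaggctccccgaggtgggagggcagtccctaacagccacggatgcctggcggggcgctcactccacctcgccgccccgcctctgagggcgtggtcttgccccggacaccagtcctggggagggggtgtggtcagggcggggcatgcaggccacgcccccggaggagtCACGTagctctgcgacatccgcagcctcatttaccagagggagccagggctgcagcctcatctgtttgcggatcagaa
These windows are chr11:18394313-18394612 on the plus strand, chrX:78103998-78104297 on the plus strand and chr17:28576846-28577145 on the minus strand. LDHA held 3 stretches, of which 2 were CACGTG, PGK1 held 3 with no CACGTG, and ALDOC held 2, of which 1 was CACGTG. Among other genes that fell in both lines, PGM2, not shown, held 2, of which 1 was CACGTG, as in ALDOC. GAPDH and ALDOA held 1 each, and ENO1, TPI1 and PGAM1 held none. TKT, which fell in cis but not in wt cells, also held none. Of the 35 promoters 12 (34.3%) held the motif, beside 21.6% of 27305 RefSeq promoters of the same length. At least 2 stretches were present in 5 of the 35 (14.3%), namely in LDHA, PGK1, ALDOC, PGM2 and HK2, beside 3.44% of all. CACGTG itself was in 4 (11.4%), beside 7.43% of all. These are matches of letters and say nothing of binding.

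Between cis SSP and cis cells in complete medium, 11 of 36 tested genes were lower and 4 higher in cis SSP, beside 13.3% lower and 15.8% higher of all 13714 genes. Without library 25 there were 23 lower and 6 higher, beside 32.5% and 32.9% of all genes. All 3 glycerol phosphate genes were lower, GPD1 at -0.91 (adjusted p = 0.032 by edgeR) and at -0.85 (lower) without library 25. SLC16A1 was at 283, 309 and 301 CPM in cis SSP against 157, 153 and 154 CPM in cis cells, a log2 fold change of 0.93 (SE 0.102, edgeR adjusted p = 0.00132), and 0.99 without library 25. Its mean in cis SSP cells, 298 ± 13.4 CPM, lay beside that of wt cells, 299 ± 3 CPM, whereas SLC16A3 was at 0.293, 1.03 and 0.656 CPM in cis SSP cells. ALDOC was at 29.6 ± 3.9 against 50.6 ± 1.74 CPM, a log2 fold change of -0.79 (SE 0.111, edgeR adjusted p = 0.00322), and -0.87 without library 25. PFKFB2 was lower at -0.69 (-0.52 without library 25). The liver-type phosphofructokinase PFKL and PGM1 were higher at 0.55 and 0.50 (0.45 and 0.45 without library 25). PGLS was at 106, 50.4 and 52 CPM in cis SSP cells, the first value being that of library 25, against 34.9, 35.3 and 35.2 CPM in cis cells, and its log2 fold change of 0.95 became 0.56 without that library.

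LDHA and LDHB were not called between cis SSP and cis, at -0.12 and 0.17, and without library 25 they were at -0.16 (lower) and -0.14 (lower). The CPM of LDHB in cis SSP cells was 2013, 1112 and 1109.9, with library 25 above both others. The number of called genes was 4 without any 1 of the 3 cis libraries, where PGLS, PFKL, PGM1 and PFKFB2 were among those lost, and 9 without the second cis SSP library. Whether these drops were particular to this list was not tested. The values of those 4 stayed between 0.96 and 0.97, 0.53 and 0.58, 0.50 and 0.53, and -0.73 and -0.64, in that order, without 1 cis library.

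Without serine and glycine the lower glycolytic genes were higher in cis SSP than in cis cells. Between cis SSP -SG and cis -SG, 20 of 37 tested genes were higher and 5 lower in cis SSP -SG, beside 21.6% higher and 23.2% lower of all 14342 genes. The median log2 fold change was 0.45, against -0.01 over all genes. Without library 32 there were 22 higher and 11 lower, beside 37% and 38.5% of all genes, with a median of 0.36. Without the first cis -SG library 15 were called. All 7 tested genes from aldolase to enolase were higher, by 0.55 to 0.84 on the log2 scale, and without library 32 by 0.35 (ALDOA) to 0.77 (GAPDH). This comparison shares the cis -SG libraries with that of cis -SG and cis cells, so the values are only set side by side. For LDHA they were -1.15 for cis -SG against cis and 0.97 (SE 0.0984, edgeR adjusted p = 0.00064) for cis SSP -SG against cis -SG, the latter 0.93 without library 32. The CPM of LDHA was 1183, 1335 and 1148 in cis SSP -SG cells, above all cis -SG libraries. For TKT the values were -1.25 and 0.91 (0.86 without library 32), with 165, 188 and 167 CPM in cis SSP -SG. For PFKFB4 they were -1.73 and 1.18 (1.20 without library 32), with 10.8, 10.4 and 10.1 CPM. For ALDOC they were -1.90 and 0.82 (0.75 without library 32). PGLS was higher by 1.05, and by 0.68 without library 32, and was not called when any 1 cis -SG library was left out (1.01 to 1.13).

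GPD2, both glucose transporters, PFKFB2 and PYGB were lower in cis SSP -SG than in cis -SG cells. GPD2 was at 0.759, 0.221 and 0.554 CPM against 25, 23.1 and 23.2 CPM, a log2 fold change of -5.51 (SE 0.288, edgeR adjusted p = 8.54e-05), and -5.20 without library 32. SLC2A3 was at 42, 39.9 and 44.2 CPM against 168, 163 and 161 CPM, at -2.03 (SE 0.0988, edgeR adjusted p = 6.1e-05), and -1.98 without library 32. Neither gene overlapped between the lines. PFKFB2 was at -1.08 (-0.93 without library 32), PYGB at -0.91 (-0.95 without library 32) and SLC2A1 at -0.41 (-0.36 without library 32). SLC16A1 was higher, at 317 ± 4.48 against 178 ± 3.1 CPM (0.76 on the log2 scale, 0.79 without library 32). LDHB (0.50), GPD1L (-0.25) and GPD1 (-0.40) were not called, and without library 32 were at 0.21 (higher), -0.16 (lower) and -0.39 (not called). SLC16A3 was at 1.03 ± 0.507 CPM in cis SSP -SG and 0.668 ± 0.0931 CPM in cis -SG cells.

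Within cis SSP cells, removal of serine and glycine gave 0 called of 38 tested genes in edgeR, beside 0.0218% higher and 0% lower of all 13736 genes. At an unadjusted p-value under 0.05 there was 1 of these genes in edgeR, and DESeq2 had 0 after adjustment and 1 without it. With libraries 25 and 32 both left out, 9 were higher and 10 lower, beside 18.9% and 17% of all genes, and in a single fit over all 36 libraries 6 were called. With both left out, the log2 fold changes were -0.05 for LDHA (not called), -0.09 for TKT (lower), -0.26 for ALDOC (lower) and -0.48 for PFKFB4 (lower). In cis cells the values of these genes were -1.15, -1.25, -1.90 and -1.73, and the difference between cis and cis SSP cells was not tested. The CPM of LDHA was 1414, 1216 and 1224 in cis SSP and 1183, 1335 and 1148 in cis SSP -SG cells, with overlap. LDHB was highest in both libraries that stood apart, with 2013, 1112 and 1109.9 CPM in cis SSP and 1229, 2127 and 1204 CPM in cis SSP -SG cells. SLC2A1 was at 55 ± 1.61 and 58.9 ± 2.84 CPM, SLC2A3 at 43.4 ± 1.29 and 42 ± 2.14 CPM, SLC16A1 at 298 ± 13.4 and 317 ± 4.48 CPM and GPD1L at 47.7 ± 4.02 and 38.6 ± 3.64 CPM.

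Carboplatin in cis SSP cells gave 2 higher and 1 lower of 38 tested genes, beside 1.97% higher and 0.749% lower of all 13885 genes. With total counts in place of TMM there were 2 higher and 2 lower. PKM was at 2190.1, 2206 and 2187 CPM with the drug against 1521, 1213 and 1221 CPM, a log2 fold change of 0.77 (SE 0.123, edgeR adjusted p = 0.0333). PGM2 was at 152, 153 and 151 CPM against 107, 102 and 102 CPM, at 0.59 (SE 0.085, edgeR adjusted p = 0.0248). The groups did not overlap for these genes, nor for PFKFB4, which fell from 14.7 ± 1.08 to 7.92 ± 0.509 CPM, at -0.86 (SE 0.112, edgeR adjusted p = 0.0185). Without library 25, 18 genes were higher and 5 lower, beside 21.9% and 19.2% of all genes. PKM was then at 0.87, PGM2 at 0.60, PFKFB4 at -0.87, LDHA at 0.28 (higher) and ALDOC at -0.48 (lower). Without any 1 of the other 5 libraries 0 were called, while PKM stayed between 0.72 and 0.78. With all libraries, LDHA (0.22), LDHB (-0.41), SLC2A1 (0.12), SLC2A3 (0.32), SLC16A1 (0.07), GPD1L (0.08) and GPD2 (-0.45) were not called. Without library 25, SLC2A3 was at 0.30 (higher) and LDHB at -0.08 (lower), while SLC2A1 (0.09), SLC16A1 (0.02), GPD1L (0.01) and GPD2 (-0.63) were still not called.

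In wt cells without serine and glycine, more of the lower glycolytic genes were higher with carboplatin than were lower. Between wt -SG carbo and wt -SG, 16 of 38 tested genes were higher and 9 lower, beside 34.3% higher and 34.6% lower of all 14467 genes. Of the 8 genes from aldolase to enolase, 6 were higher and 1 lower. The split of all tested genes of the list was 14 and 13 with total counts in place of TMM. Library 11 of wt -SG carbo deviated from its group by -0.151 per doubling of length. Without it the split was 18 and 11, beside 36.6% and 36.7% of all genes. SLC16A3 went from 13.3, 14.3 and 13.3 CPM to 34.4, 35.2 and 37.5 CPM, a log2 fold change of 1.40 (SE 0.0729, edgeR adjusted p = 2.02e-07). PKM went from 1289, 1282 and 1239.5 CPM to 2476, 2524 and 2473 CPM, at 0.98 (SE 0.0459, edgeR adjusted p = 1.04e-07). The groups did not overlap for these genes, nor for PYGM, which fell from 22.5, 22.1 and 23.5 CPM to 1.68, 2.27 and 1.85 CPM, at -3.53 (SE 0.114, edgeR adjusted p = 1.01e-08). ALDOA rose by 0.76 and PGAM1, the phosphoglycerate mutase, by 0.74, and ALDOC, PGM1 and LDHB fell by 0.89, 0.61 and 0.56 on the log2 scale. LDHA rose by 0.31 and SLC2A1 by 0.25, and GPD2 fell by 0.35. SLC2A3 (0.09), SLC16A1 (-0.10) and GPD1L (-0.13) were not called.

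In cis cells without serine and glycine, carboplatin gave 2 higher and 11 lower of 37 tested genes, beside 10.9% higher and 11.6% lower of all 14476 genes, with called log2 fold changes from -0.24 to 0.29. PFKFB2 was higher by 0.29 (SE 0.0386, edgeR adjusted p = 0.000207) and PKM by 0.20. SLC2A1, SLC16A1, the ribose phosphate isomerase RPIA and HK2 were lower, at -0.24, -0.21, -0.20 and -0.19. LDHA was at -0.18 and LDHB at -0.15, both lower, and SLC2A3 (0.01), GPD1 (0.09), GPD1L (-0.12) and GPD2 (0.11) were not called. Libraries 23 and 24 of this condition had up to 17.9% of their counts on no gene, against at most 9.31% in the others. In a fit without both, in which 1 library of cis -SG carbo remained and was assumed to vary like those of cis -SG, 3 were higher and 7 lower, beside 7.61% and 6.91% of all genes, and RPIA (-0.17) and HK2 (-0.11) were not called. In a single fit over the 36 libraries PFKFB2 (0.28), PKM (0.19), RPIA (-0.21) and HK2 (-0.20) were not called, which left 0 higher and 4 lower genes.

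In cis SSP cells without serine and glycine, 1 gene was lower with carboplatin and 0 were higher of 37 tested, beside 0.295% lower and 1.17% higher of all 13541 genes. It was ALDOC, at 14, 14 and 14.6 CPM against 22.2, 27.1 and 23.2 CPM, a log2 fold change of -0.75 (SE 0.114, edgeR adjusted p = 0.0387). Without library 32 there were 11 higher and 7 lower genes, beside 21.1% and 19.9% of all genes. PGM2 was then at 0.54 (higher), PKM at 0.49 (higher), LDHA at 0.32 (higher) and ALDOC at -0.65 (lower). Without any 1 of the other libraries 0 were called, with ALDOC between -0.80 and -0.74.

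The levels of the transport and lactate genes over the 4 combinations of medium and drug are given here by line, as means of 3 libraries. SLC2A1 ranged in wt between 77.4 ± 2.5 CPM (wt -SG) and 99.7 ± 2.68 CPM (wt), in cis between 50.7 ± 1.61 CPM (cis carbo) and 74.6 ± 1.75 CPM (cis -SG) and in cis SSP between 55 ± 1.61 CPM (cis SSP) and 58.9 ± 2.84 CPM (cis SSP -SG). SLC2A3 ranged in wt between 209.6 ± 2.98 CPM (wt carbo) and 232 ± 4.77 CPM (wt -SG carbo), in cis between 116 ± 1.99 CPM (cis) and 164 ± 1.09 CPM (cis -SG carbo) and in cis SSP between 42 ± 2.14 CPM (cis SSP -SG) and 53 ± 1.89 CPM (cis SSP carbo). The 2 transporters thus differed in that SLC2A3 was lowest in every cis SSP condition. LDHA ranged in wt between 759.9 ± 10.4 CPM (wt -SG) and 1310.0 ± 21.6 CPM (wt), in cis between 522 ± 11.5 CPM (cis -SG carbo) and 1373 ± 35.5 CPM (cis) and in cis SSP between 1222 ± 99.5 CPM (cis SSP -SG) and 1459 ± 29 CPM (cis SSP carbo). LDHB ranged in wt between 785 ± 56.1 CPM (wt -SG carbo) and 1215 ± 11 CPM (wt), in cis between 912 ± 22.6 CPM (cis -SG carbo) and 1231 ± 38.8 CPM (cis) and in cis SSP between 1035 ± 7.96 CPM (cis SSP carbo) and 1520.3 ± 526 CPM (cis SSP -SG). The large SDs of LDHB in cis SSP cells belong to the conditions of libraries 25 and 32. SLC16A1 ranged in wt between 278 ± 4.74 CPM (wt -SG carbo) and 299.6 ± 5.55 CPM (wt -SG), in cis between 153 ± 7.13 CPM (cis -SG carbo) and 178 ± 3.1 CPM (cis -SG) and in cis SSP between 298 ± 13.4 CPM (cis SSP) and 317 ± 4.48 CPM (cis SSP -SG). SLC16A3 ranged in wt between 13.6 ± 0.585 CPM (wt -SG) and 35.7 ± 1.62 CPM (wt -SG carbo), in cis between 0.234 ± 0.116 CPM (cis) and 0.668 ± 0.0931 CPM (cis -SG) and in cis SSP between 0.463 ± 0.117 CPM (cis SSP -SG carbo) and 1.03 ± 0.507 CPM (cis SSP -SG). GPD1L ranged in wt between 19.3 ± 0.869 CPM (wt -SG carbo) and 32.5 ± 0.257 CPM (wt), in cis between 40.1 ± 0.148 CPM (cis -SG carbo) and 70.6 ± 1.13 CPM (cis carbo) and in cis SSP between 38.6 ± 3.64 CPM (cis SSP -SG) and 49.4 ± 2.36 CPM (cis SSP carbo).

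The balance of isozymes, as shares of CPM per kb within a family, is a description with no test. PFKP made up 15.2% ± 0.429 of the phosphofructokinases in wt and 38.9% ± 0.388 in cis cells (SD, n = 3 libraries), and PFKM 63.2% ± 0.361 and 45.2% ± 1.03. PFKFB4 held 33.2% ± 0.84 of its family in wt, 11.5% ± 0.125 in wt carbo, 9.33% ± 0.0681 in cis and 3.03% ± 0.289 in cis -SG cells. PFKFB2 held 16% ± 1.18, 37.4% ± 0.992, 31% ± 1.42 and 49.3% ± 0.691 in the same order. PFKFB4 held the larger share of the pair in wt and PFKFB2 in the other 3 of these conditions. LDHA held 34.8% ± 0.3 of the lactate dehydrogenases in wt and 24.5% ± 0.338 in wt -SG, and 35.6% ± 0.135 in cis and 22.4% ± 0.211 in cis -SG cells. As shares of CPM not divided by length these were 51.9%, 39.6%, 52.7% and 36.8%, so which of LDHA and LDHB was the larger in wt and cis cells depended on the division. In cis SSP cells its share was 32.1% ± 5.44 and in cis SSP -SG 29.3% ± 4.88, the conditions of libraries 25 and 32, in which those libraries had 25.8% and 23.7% and the others at least 32.1%. PGM1 held 52.5% ± 1.43 of the phosphoglucomutases in wt and 25.8% ± 1.69 in wt carbo cells. PYGM held 6.54% ± 0.277 of the phosphorylases in wt and 0.0738% ± 0.0164 in cis cells.

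**Figure D5:**
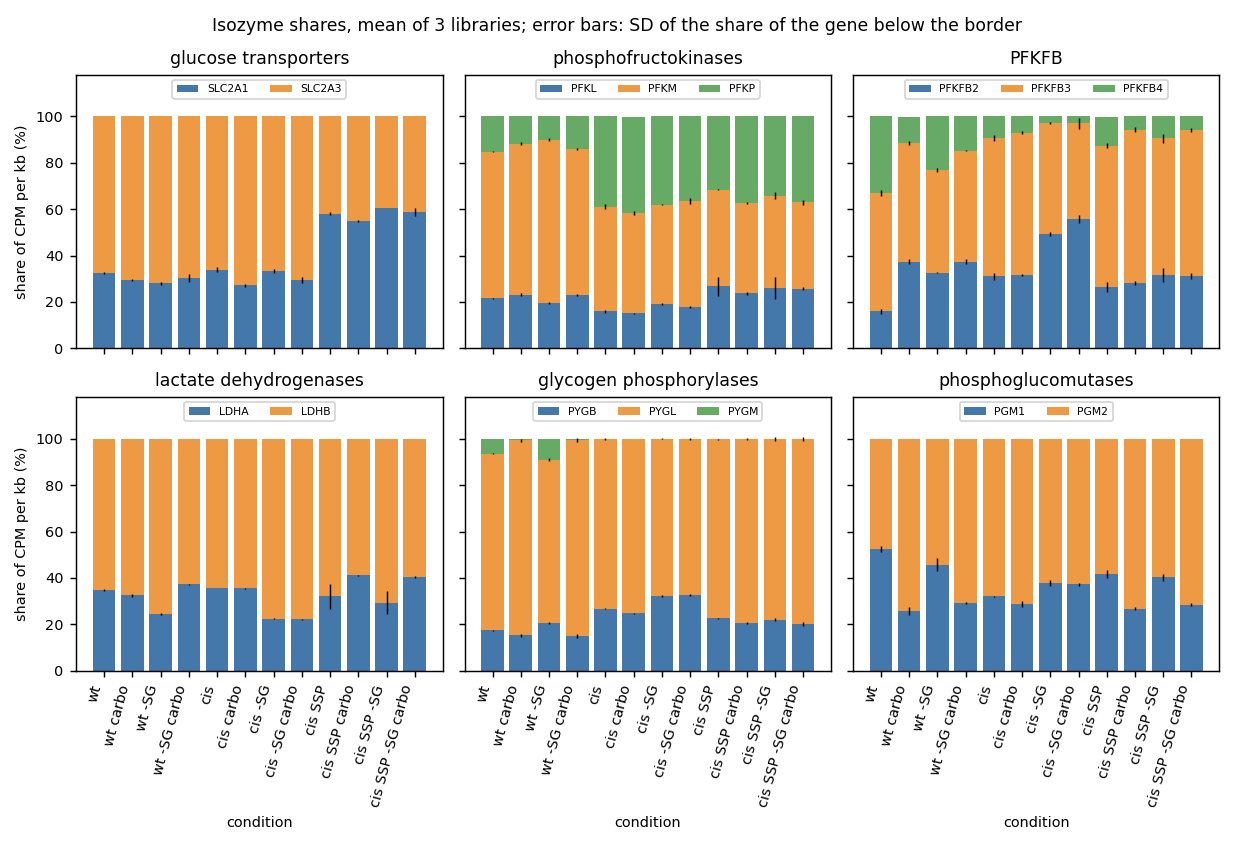
Shares of CPM per kb of exon within 6 families in the 12 conditions, as stacked bars of the mean of 3 libraries; error bars are the SD of the share of the gene below that border. PFKP takes 38.9% of the phosphofructokinases in cis against 15.2% in wt, and SLC2A1 takes 58.1% of the transporter pair in cis SSP against 33.9% in cis.

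Of 43 further genes of the same pathways, written down as a list by role, 32 were tested between cis and wt cells, of which 6 were higher and 18 lower in cis, beside 39.4% and 39.1% of all genes. The deepest falls among these further genes were those of SLC2A10 (-10.71 on the log2 scale), SLC2A12 (-4.40), RBKS (-3.19) and PPP1R3C (-2.53). SLC2A10, SLC2A12 and RBKS did not pass the filter on low counts between cis carbo and cis. The sizes of their falls thus rest on few reads in cis cells. The largest rise was that of PRPS2, at 1.94. GBE1, the glycogen branching enzyme, was at 166 ± 5.19 CPM in wt libraries and 39.1 ± 2.32 CPM in those of cis. With carboplatin, 13 of 33 were higher and 17 lower in wt (all genes 38.9% and 39%), and 2 of 29 higher and 5 lower in cis cells (all genes 9.27% and 10.8%). TIGAR, a fructose bisphosphatase known as a target of p53, rose in wt cells from 90.1 ± 1.75 to 183 ± 6.38 CPM, and PCK2, the mitochondrial carboxykinase that makes phosphoenolpyruvate, fell from 226 ± 3.09 to 100.1 ± 2.68 CPM. HKDC1, a hexokinase domain protein, had 0 counts in all wt libraries and 25 to 31 counts in each wt carbo library, where a count of 0 allows up to 3 counts. It also had 0 counts in all cis libraries and 37 to 46 counts in each cis -SG library. Without serine and glycine, 5 of 32 were higher and 9 lower in wt (all genes 24.1% and 25.1%), and 11 of 31 higher and 15 lower in cis cells (all genes 37.6% and 37.4%). H6PD, which starts a pentose phosphate branch inside the endoplasmic reticulum, rose in cis cells from 25.1 ± 3.04 to 72.4 ± 4.31 CPM.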

How the data were processed

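RNA was sequenced from 36 libraries of 12 conditions (3 libraries each). The authors deposited raw counts per gene, made per the study's methods with STAR on GRCh37.p13 and HTSeq on the GENCODE v19 annotation, so the unit is counts of reads. Whether counting used strand, and how multiply mapped reads were treated, is not given in the sources used here. The 3 rows that name no gene were left out, and reads on no feature were 4.21% to 17.9% of a library. Total counts on genes ran from 13074937 to 20441582. Symbols came from a later lift of GENCODE to the same build and matched 55538 of 57820 identifiers.

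The 40 genes, the 43 further genes and the tests were chosen with earlier results of these data known. Each comparison used only the libraries of its own conditions in edgeR 4.0.16 (R 4.3.3), with TMM, filterByExpr, robust glmQLFit and glmQLFTest, and Benjamini-Hochberg adjustment over all genes tested, called under 0.05. Responses were compared between lines with an interaction term. The standard error is the size of the log2 fold change divided by the square root of F. CPM were scaled by TMM over the 36 libraries, and levels between genes were compared per kb of exon. Alternatives were DESeq2 1.42.0 (Wald test), DESeq2 size factors or total counts in place of TMM, no filter, a single fit over the 36 libraries, each library left out in turn, libraries 25 and 32 or 23 and 24 left out together, and shares without division by length. In each comparison, the called genes with the largest log2 fold change were named, at most 4 in each direction. Their mean was at least 5 CPM. The glycerol phosphate, glucose transporter, LDHA, LDHB, SLC16A1 and SLC16A3 genes were named as well, though not each of them in every comparison. Other genes named were chosen after their values were seen. Annotated near-identical copies held few counts beside these genes. Reads that fit a gene and its copy may have been dropped in counting, so this does not show that the levels were unaffected. The 36 pairs of libraries of 1 condition had chi-square values from 1.2 to 123.0 per degree of freedom, so none was counted as 1 sample. The scripts were tested on simulated data. Tables were made with Python 3.11.15 (pandas 2.3.3) and figures with matplotlib 3.10.9.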

Additional observations from a re-analysis of the deposited data

Results flagged for a closer look

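The response to carboplatin differed between cis and wt cells for 30 of 39 tested genes, and the response to removal of serine and glycine for 31 of 39, by the interaction term of edgeR at an adjusted p-value under 0.05. Of all genes tested, 30.3% had a higher and 27.2% a lower response to carboplatin in cis than in wt cells, and 27.1% and 26.9% to removal of serine and glycine. Listed are the largest differences in log2 fold change (cis minus wt), at most 4 in each direction, at a mean of at least 5 CPM. Carboplatin gave 3.69 for PYGM, 1.74 for ALDOC, 1.48 for PGM1 and 1.22 for PFKFB4. The 4 genes called lower were at -1.08 for PFKFB2, -0.44 for PKM, -0.27 for PGLS and -0.19 for ALDOA. GPD2, LDHA, GPD1L and LDHB differed by more than PKM, PGLS and ALDOA, in the other direction. The calls of PGLS and ALDOA were lost in a single fit over the 36 libraries. Removal of serine and glycine gave 2.73 for SLC16A3, 0.90 for SLC2A1, 0.72 for PYGB, 0.71 for PYGL, -1.26 for TKT, -1.15 for ALDOC, -0.79 for PFKFB4 and -0.74 for PGD. PYGM and SLC16A3 were close to 0 counts in the cis libraries, so their differences rest on few reads in that line.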

How the results depend on the processing

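Libraries of 1 condition are technical replicates from 1 line, so no result covers the spread between cultures. No paired analysis was possible because the labels give no replicate numbers that tie libraries of different conditions together. Of 1092 alternative values for the 90 named gene values, 1030 kept direction and call, 62 kept the direction and lost the call, and 0 reversed. The counts that moved were those of cis carbo against cis (15; 7 with the DESeq2 Wald test, 2 in a single fit over the 36 libraries), cis -SG carbo against cis -SG (13; 4 in a single fit), cis SSP carbo against cis SSP (3; 12 in a single fit, 0 to 23 with 1 library left out), cis SSP -SG carbo against cis SSP -SG (1; 4 with DESeq2, 12 in a single fit, 0 to 18 with 1 library left out), cis SSP -SG against cis SSP (0; 19 without libraries 25 and 32, 6 in a single fit), cis SSP against cis (15; 9 with no filter, 4 to 29 with 1 library left out) and cis SSP -SG against cis -SG (25; 15 to 33 with 1 library left out). The lowest values in the last 2 belong to fits without 1 cis or cis -SG library, and the highest to those without library 25 or 32. The cause was not tested. The share of all genes called was not tabulated for most of these fits, so whether the moves were particular to this list was not tested. Without division by length, 215 of 300 isozyme shares moved by more than the spread between libraries. No other scaling shifted the median of all genes by over 0.1 on the log2 scale.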
